A study of Mus musculus with 20 samples.

Results

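Messenger RNA ratios of 10 genes that detoxify peroxides and superoxide, recycle or use glutathione, or store and release iron were followed in the cortex of mice exposed to cocaine before birth. The members are Gpx4, Nqo1, Gsr, Gsta1, Ftl1, Hmox1, Sod1, Sod2, Cat and Prdx1, and every probe whose only gene symbol in the platform annotation is one of them was taken, which gave 21 of the 22575 probes, for 10 of 16504 genes. Gsr has 2 probes, called A and B here in order of probe number, and Sod1 has 11, of which 1 is annotated to its RefSeq transcript and 10 are spots that share 1 cDNA accession (spots a to j). The other 8 genes have 1 probe each. All 21 probes passed the filter of at least 3 values in every group.

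Swiss Webster dams were injected under the skin with cocaine hydrochloride in 0.9% saline at 20 mg/kg, 2 times daily between embryonic days 8 and 18, while control dams received saline alone and were pair-fed. Each of 20 two-colour Agilent arrays set RNA of cocaine-exposed cortex against RNA of saline-exposed cortex, 5 µg of each, with 5 arrays in each of 4 groups: the frontal and the occipital cerebral wall of the fetus, and the same regions of the adult. Fetal tissue was taken on embryonic day 18, 1 h after the last injection and from 2 fetuses per channel, and the offspring called adult were 30 days old and had received no drug themselves. The labels state separate litters for each slide of a region, and do not say whether both regions came from the same animals. No allele or transgene was involved.

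Values are log2 ratios relative to each array's median, so 1 means a doubling over the median probe. The direction cocaine over saline is likely but not stated: every array has cocaine RNA in channel 1 and saline RNA in channel 2 under different dyes, and with no dye swap a fixed dye difference of a probe cannot be told apart from exposure. For replicate 1 of fetal frontal cortex both dyes are listed under channel 1. The titles number 2 fetal occipital arrays as 1, here replicate 1 and replicate 1b. Ratios of pairs of arrays correlated across all probes from -0.04 to 0.86 with a median of 0.51, and the spread within an array ran from 0.485 to 1.18 as the median absolute deviation. Ratios hold no levels, so levels of cortical markers could not be checked. By the brightness rank explained further on, the 12 neuron markers had a median at the 79.8th percentile of all probes. The 9 oligodendrocyte markers had 82.1 and the 10 astrocyte markers 57.8. This rank is scored from the same ratios, so it cannot show which tissue was taken.

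Cells make superoxide and hydrogen peroxide as by-products of respiration and of amine oxidation, and cocaine raises extracellular dopamine, whose breakdown yields peroxide. Superoxide dismutases turn superoxide into peroxide, catalase, peroxiredoxins and glutathione peroxidases remove it, and glutathione reductase restores the glutathione that these reactions oxidise. Many of the members are induced by the transcription factor Nrf2 through the antioxidant response element, and ferritin and haem oxygenase together govern how much free iron is at hand to turn peroxide into hydroxyl radicals.

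In the RefSeq table (GRCm38.p6) the members lie on 8 chromosomes: Cat on chromosome 2 (103453904 to 103485153), Prdx1 on 4 (116685599 to 116700000), Ftl1 on 7 (45457944 to 45459886), Gsta1 on 9 (78230669 to 78242683), Gpx4 on 10 (80047166 to 80056439), Sod1 on 16 (90220762 to 90226333) and Sod2 on 17 (13007839 to 13018119). On chromosome 8 lie Gsr (33653238 to 33698162), Hmox1 (75093618 to 75100593) and Nqo1 (107388225 to 107403205). The core of the antioxidant response element, TGACNNNGC read on either strand, was searched in the 250 bases before each start site. It stands in 10.16% of the 32851 such windows of the table, and in 2 of the 11 windows of the 8 members that the table holds (Gsr and Hmox1 were not among them). The match of Prdx1 begins 133 bases before the start and that of Sod1 56 bases before it, both on the opposite strand. These 2 windows are shown because they carry the match, in capitals, and those of Ftl1 and Nqo1 because these genes had ratios far above and far below 0; all are RefSeq sequence, 5′ to 3′ along the gene.
Prdx1 chr4:116685349-116685598, strand +: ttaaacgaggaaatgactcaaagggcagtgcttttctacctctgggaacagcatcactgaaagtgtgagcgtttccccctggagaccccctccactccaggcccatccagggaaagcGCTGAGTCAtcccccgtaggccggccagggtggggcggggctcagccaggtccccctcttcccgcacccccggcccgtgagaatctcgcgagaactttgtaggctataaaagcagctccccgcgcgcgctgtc
Sod1 chr16:90220512-90220761, strand +: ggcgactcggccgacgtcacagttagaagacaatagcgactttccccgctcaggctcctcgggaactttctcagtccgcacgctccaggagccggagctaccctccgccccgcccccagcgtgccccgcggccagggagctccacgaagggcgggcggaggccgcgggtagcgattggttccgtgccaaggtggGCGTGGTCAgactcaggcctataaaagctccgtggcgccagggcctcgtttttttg
Ftl1 chr7:45459887-45460136, strand -: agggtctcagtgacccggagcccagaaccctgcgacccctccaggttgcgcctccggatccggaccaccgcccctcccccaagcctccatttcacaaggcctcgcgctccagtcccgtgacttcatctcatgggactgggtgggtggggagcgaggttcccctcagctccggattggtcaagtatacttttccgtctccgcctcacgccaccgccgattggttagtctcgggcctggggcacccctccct
Nqo1 chr8:107403206-107403455, strand -: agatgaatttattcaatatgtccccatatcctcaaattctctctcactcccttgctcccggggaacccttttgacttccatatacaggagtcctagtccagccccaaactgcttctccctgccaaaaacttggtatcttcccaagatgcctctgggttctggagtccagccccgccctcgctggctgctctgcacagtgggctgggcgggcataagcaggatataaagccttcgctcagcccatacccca

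Of the 11 probes other than the repeated Sod1 spots, 5 were higher, 1 was lower and 5 did not pass in fetal frontal cortex, and the same split of 5, 1 and 5 was found in the other 3 groups, by limma with Benjamini-Hochberg adjustment over 22567 probes and a threshold of 0.05. With the 10 repeated spots, 7, 10, 12 and 7 of 21 probes passed in fetal frontal and occipital, then adult frontal and occipital cortex (33.3%, 47.6%, 57.1% and 33.3%). Among all probes 37.0%, 24.7%, 56.1% and 48.2% passed, with 18.7%, 10.5%, 26.8% and 24.1% higher and 18.4%, 14.2%, 29.4% and 24.1% lower, and 10 of the 21 member probes repeat 1 cDNA. The members' share was near the background in fetal frontal and adult frontal cortex and below it in adult occipital cortex. In fetal occipital cortex it was above the background with all arrays, but without replicate 1b 3 of 21 passed there against 15.4% of all probes. The median ratio of the 11 probes was 0.56, 0.22, 0.70 and 0.73, against -0.04, -0.03, -0.04 and 0.01 for all probes. In tissue RNA fewer cells of a type and less RNA per cell cannot be told apart, and this holds for every ratio given here.

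Gsta1, an alpha-class glutathione transferase that couples glutathione to electrophiles, was higher on 20 of 20 arrays. Its 5 fetal frontal values were 2.16, 3.18, 1.30, 0.52 and 1.77, and its 5 adult frontal values 1.73, 1.31, 2.07, 1.01 and 2.16. In occipital cortex it read 0.76, 2.0, 1.60, 0.68 and 0.63 in the fetus and 1.99, 1.32, 1.57, 0.77 and 0.43 in the adult. The groups overlapped widely, and replicate 2 of fetal frontal cortex was the highest. The means were 1.79 ± 0.31 (SE, n = 5 arrays), 1.13, 1.66 and 1.22 ± 0.31 in fetal frontal and occipital, then adult frontal and occipital cortex, folds of 3.45, 2.19, 3.15 and 2.32, with limma adjusted p of 0.000271, 0.0104, 8.8e-05 and 0.00292. The fetal occipital call was lost without replicate 1b (0.92, limma adjusted p 0.0642). Gsta1 has close relatives such as Gsta2, and since probe sequences were not analysed here their shares in the signal cannot be told apart.

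Gpx4, the glutathione peroxidase that reduces lipid peroxides in membranes and holds back ferroptosis, was most even in adult frontal cortex. There its 5 values were 1.78, 1.86, 1.33, 1.75 and 1.70, a mean of 1.68 ± 0.30 (SE, n = 5 arrays) and a 3.21-fold ratio with a limma adjusted p of 4.41e-05. In adult occipital cortex they were 1.76, 1.24, 1.22, 0.79 and 0.68 (mean 1.14 ± 0.30, limma adjusted p 0.00312), with all 5 above 0 again. The fetal values were scattered: 1.81, 1.52, 0.21, -0.062 and 1.43 in occipital cortex (mean 0.98 ± 0.30, limma adjusted p 0.0173) and -0.42, 1.72, 0.88, 0.082 and 0.54 in frontal cortex (mean 0.56 ± 0.30, limma adjusted p 0.136, not passing). The fetal occipital call was lost without replicate 1, 1b or 5, at 0.77 to 0.87. Only 1 fetal frontal array reached the lowest adult frontal value.

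Gsr encodes glutathione reductase, and its probes did not tell 1 story. Probe B was above 0 on 20 of 20 arrays and passed in all 4 groups, at 1.21, 1.32, 1.21 and 1.22 ± 0.31 (SE, n = 5 arrays each), folds from 2.31 to 2.50, with limma adjusted p from 0.00132 to 0.00313. Probe A averaged -0.73, -0.04, -0.23 and -0.21 ± 0.36, passed in no group and lay on both sides of 0 in each. Their array values are compared below.

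Ftl1, the light chain of ferritin that stores iron in the cytosol, was above 0 on 20 of 20 arrays. The values were 4.18, 2.13, 1.05, 0.72 and 1.37 in fetal frontal, 0.84, 1.41, 0.18, 1.80 and 1.42 in fetal occipital, 1.63, 1.95, 2.15, 0.77 and 2.61 in adult frontal and 2.24, 1.42, 1.28, 1.13 and 0.86 in adult occipital cortex. Replicate 1 of fetal frontal cortex, where both dyes stand under channel 1, was the highest of all 20. The means were 1.89, 1.13, 1.82 and 1.38 ± 0.35 (SE, n = 5 arrays each), folds of 3.71, 2.19, 3.53 and 2.61, and all 4 passed with limma adjusted p of 0.000353, 0.0205, 0.000112 and 0.00273. With the sign of that replicate turned, the fetal frontal mean of Ftl1 was 0.22 (limma adjusted p 0.803), and 0 of the 7 calls in fetal frontal cortex passed. In fetal occipital cortex the call was lost without replicate 1b, 4 or 5, at 0.96 to 1.06.

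Hmox1, the inducible haem oxygenase that frees iron from haem, did not share the direction of ferritin in the ratios relative to the array's median. It was lower in fetal occipital cortex, where the 5 values were -0.67, -0.57, -2.21, -0.52 and -1.49 (mean -1.09 ± 0.29, SE, n = 5 arrays, limma adjusted p 0.00736). The call was lost without replicate 3 (-0.81, limma adjusted p 0.0568). In fetal frontal, adult frontal and adult occipital cortex it averaged -0.47, -0.21 and -0.57 and did not pass, with limma adjusted p from 0.101 to 0.557. From 1 to 2 of the 5 arrays of each of these groups were above 0. The probes of Hmox1 and Ftl1 ranked at the 16.2th and 92.3th percentiles of the brightness described below. With the trend on brightness removed, the mean of Hmox1 over 20 arrays went from -0.59 to 0.17 and that of Ftl1 from 1.56 to 0.50. The fetal occipital call of Hmox1 did not pass then.

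Nqo1, the NAD(P)H quinone reductase often read as an index of Nrf2 activity, was below 0 on all 20 arrays. Its values were -0.89, -0.79, -0.22, -1.69 and -0.81 in fetal frontal, -0.40, -1.28, -0.48, -0.75 and -0.63 in fetal occipital, -0.34, -1.50, -2.37, -2.56 and -1.31 in adult frontal and -1.56, -2.06, -1.31, -1.17 and -1.03 in adult occipital cortex. The adult means of -1.61 and -1.43 ± 0.29 (SE, n = 5 arrays each) passed with limma adjusted p of 4.6e-05 and 0.000558, folds of 0.327 and 0.372. The fetal frontal mean of -0.88 passed (limma adjusted p 0.0176) and was lost without replicate 4 (-0.68, limma adjusted p 0.103), and the fetal occipital mean of -0.71 did not pass (limma adjusted p 0.0677). Nqo1 and Gsta1, which in mouse are both induced through Nrf2, stood on opposite sides of 0 on every array. Their probes ranked at the 7.8th and 99.7th percentiles of the brightness described below. With the trend on brightness removed neither passed in any group, and in adult occipital cortex both lay below 0. Nrf2 activity was not tested.

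Sod1, the copper and zinc superoxide dismutase of the cytosol, is described first by its RefSeq-transcript probe. It read 0.88, 2.33, 1.23, 0.63 and 0.18 in fetal frontal and 0.80, 1.10, 0.88, 1.82 and 1.78 in fetal occipital cortex, and passed in both, at 1.05 and 1.27 ± 0.31 (SE, n = 5 arrays each) with limma adjusted p of 0.00941 and 0.00432. In adult frontal cortex it read 0.74, 0.95, -0.25, 0.66 and 0.87 (mean 0.59, limma adjusted p 0.102) and in adult occipital cortex 2.09, 1.04, -0.048, 0.20 and 0.35 (mean 0.73, limma adjusted p 0.0526), and passed in neither. Replicate 3 was below 0 in both adult groups. The fetal frontal call was lost without replicate 2 (0.73, limma adjusted p 0.0979), and the adult occipital mean passed without replicate 3 (0.92, limma adjusted p 0.0363).

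Sod2, the manganese superoxide dismutase of mitochondria, passed only in the adult groups. The adult values were -0.099, 1.28, 1.38, 0.88 and 0.32 in frontal cortex (mean 0.75 ± 0.27, SE, n = 5 arrays, limma adjusted p 0.0176) and 1.49, 0.51, 1.21, 0.71 and 0.42 in occipital cortex (mean 0.87 ± 0.27, limma adjusted p 0.00943). The fetal means were -0.26 and -0.03 with limma adjusted p of 0.465 and 0.939, and no fetal value was above 0.46. The adult frontal call was lost without replicate 2 or 3 (0.62 and 0.60) and the adult occipital call without replicate 1 (0.71, limma adjusted p 0.0548).

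Cat, the catalase of peroxisomes, passed in no group, with means of 0.46, 0.22, 0.15 and 0.70 ± 0.30 (SE, n = 5 arrays each). Its adult occipital values of 0.41, 1.04, 0.19, 1.52 and 0.33 were all above 0 (limma adjusted p 0.057). Prdx1, a cytosolic peroxiredoxin, was higher in fetal frontal cortex, at 0.83, 1.98, 0.64, 0.032 and 1.03 (mean 0.90 ± 0.31, SE, n = 5 arrays, limma adjusted p 0.0241), a call lost without replicate 2 or 5 (0.63 and 0.87). In fetal occipital cortex its values of -0.58, 0.37, -0.77, 0.86 and -0.79 fell on both sides of 0 (mean -0.18, limma adjusted p 0.699). The adult means of 0.70 and 0.58 did not pass (limma adjusted p 0.0558 and 0.122).

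**Figure D1:**
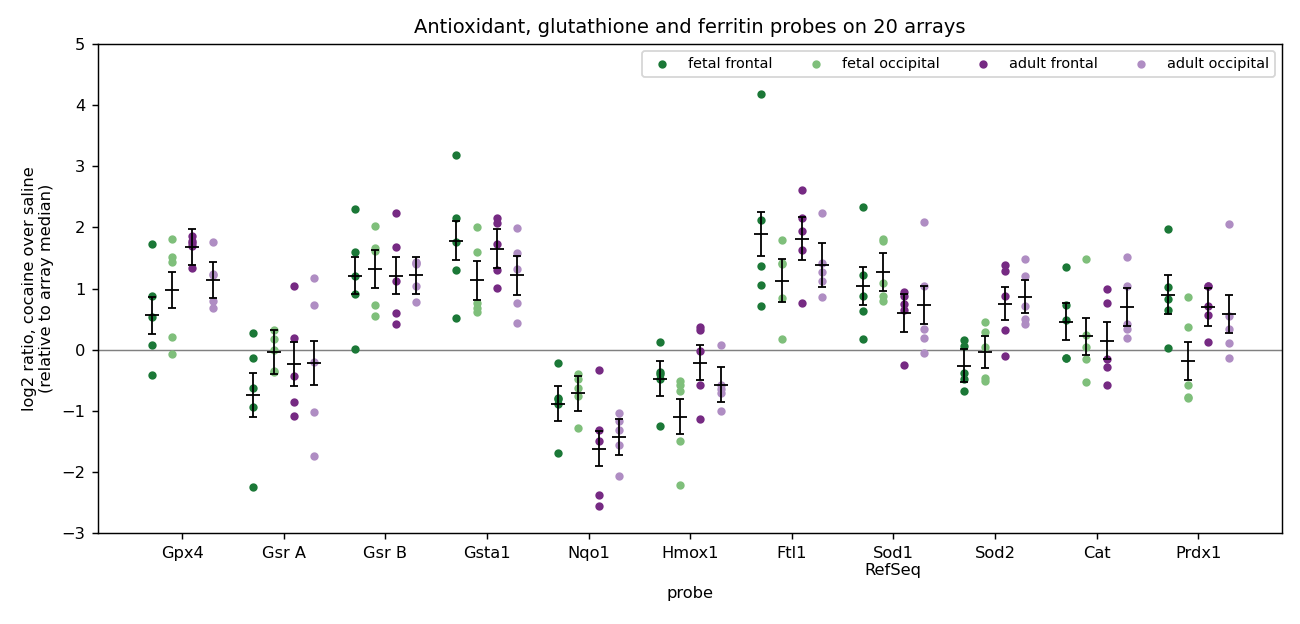
Each dot is the log2 ratio of cocaine over saline, relative to the array's median (vertical axis), of 1 probe (horizontal axis) on 1 array, coloured by group, and the bars are the group mean ± SE of the limma model with 5 arrays a group. Gsta1, Ftl1 and Gsr probe B lie above 0 on all 20 arrays and Nqo1 lies below 0 on all 20.

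The probes of a gene were then set against each other on the same array, which leaves out differences between animals. Gsr probe A was below probe B on 19 of 20 arrays, by 1.54 ± 1.12 on the log2 scale (SD, n = 20 arrays; two-sided sign-flip permutation test, p 1e-05, the smallest that 100000 resamples can give, 9.5e-05 after Benjamini-Hochberg adjustment over 57 comparisons of probes). On fetal frontal replicate 1 probe A read 0.27 and probe B 0.021, and on replicate 2 they read -2.24 and 2.30. On adult frontal replicate 2 they nearly met, at 1.04 and 1.12, and on adult occipital replicate 5 at 1.17 and 1.40. Within single groups the exact sign-flip test gave 0.125 in fetal frontal cortex and 0.0625 in the other 3, and 0.0625 is the smallest p that 5 arrays allow.

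The Sod1 probe of the RefSeq transcript was above the mean of the 10 cDNA spots on 20 of 20 arrays, by 1.07 ± 0.78 (SD, n = 20 arrays; permutation adjusted p 9.5e-05; a comparison added after the data were seen). It was also above each single spot on average, by 0.66 (spot i) to 1.50 (spot a), and all 10 pairs passed, with the largest permutation adjusted p at 0.0188. Among the spots themselves 11 of 45 pairs passed, and the largest difference was 0.83 with a median of 0.32. Even so, the 10 spots of 1 cDNA did not repeat each other closely: their SD within an array averaged 0.59. On fetal frontal replicate 3 they ran from -2.52 to 0.74 and on fetal occipital replicate 5 from -1.99 to 2.16. The array carries 48 accessions with 10 or more spots, and this SD ran from 0.40 to 0.82 over them with a median of 0.62, so Sod1 was close to the middle. A glutathione transferase with 10 spots, Gsta4, had an SD of 0.45 and a mean ratio of 0.90, and the peroxiredoxin Prdx2 had 0.62 and 0.49.

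**Figure D2:**
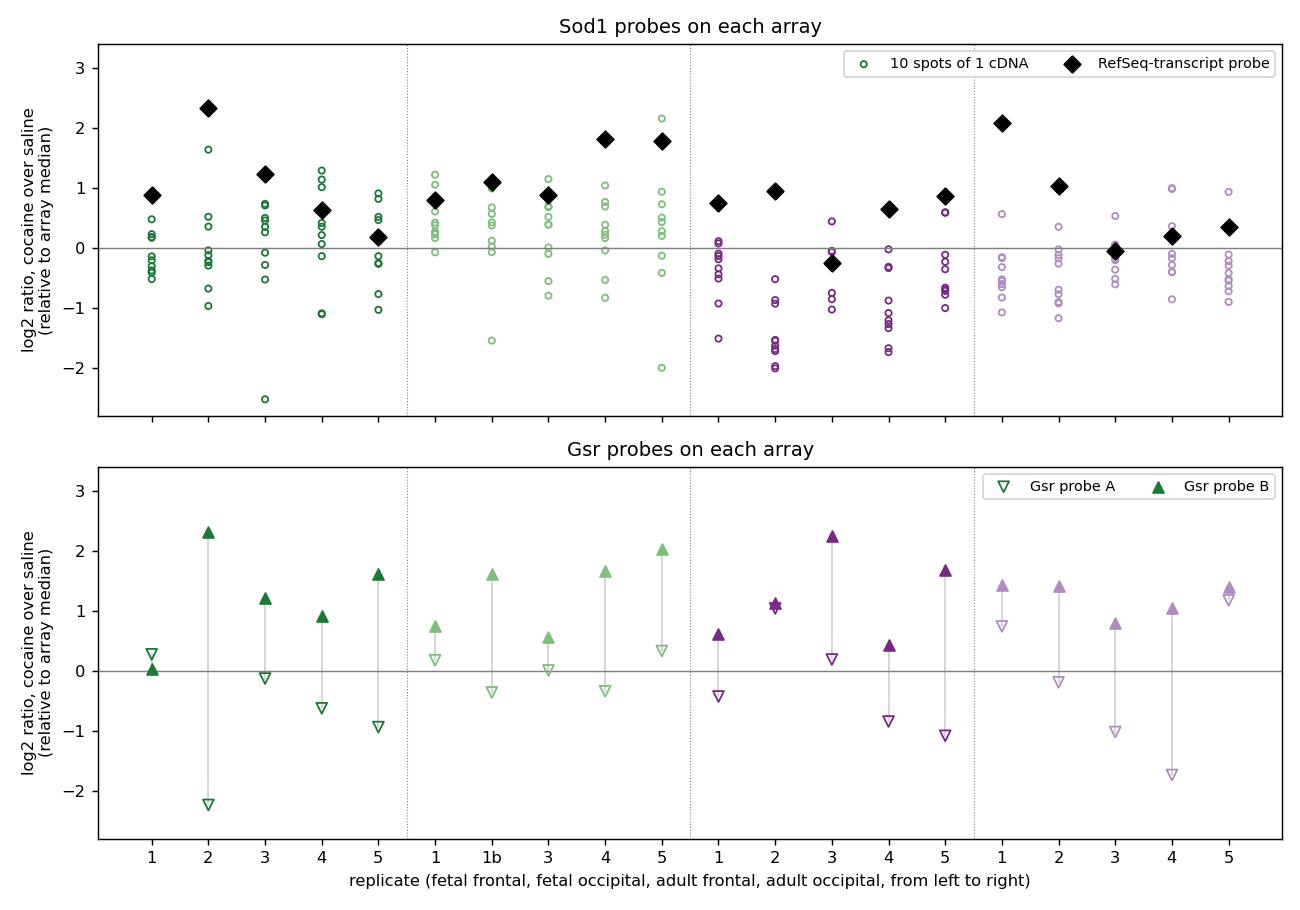
Cocaine over saline log2 ratios on the vertical axis, relative to the array's median, for the Sod1 probes (top, with the RefSeq-transcript probe as a diamond and the 10 cDNA spots as circles) and the Gsr probes (bottom) on each of 20 arrays, in the order of groups given on the horizontal axis. The diamond lies above the mean of the circles on 20 of 20 arrays, and Gsr probe A lies below probe B on 19 of 20.

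Taken one by one, the cDNA spots gave calls in both directions. In fetal frontal cortex 1 of 10 was higher and none lower, in fetal occipital cortex 3 were higher and 1 lower, in adult frontal cortex none higher and 6 lower, and in adult occipital cortex none higher and 1 lower. Of all probes 18.7%, 10.5%, 26.8% and 24.1% were higher and 18.4%, 14.2%, 29.4% and 24.1% lower in these groups. The 10 spots read 1 cDNA, so their calls are not separate evidence. Spot d, for example, was 0.84 ± 0.32 and 0.85 ± 0.32 in the 2 fetal groups (SE, n = 5 arrays each, limma adjusted p 0.0381 and 0.0482). Spot h was -0.90 ± 0.29 in adult frontal cortex (limma adjusted p 0.0106). Of these 12 calls, each was lost without at least 2 of the 5 arrays in turn, all of them for spots d and i in fetal occipital cortex.

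Averaging the 10 spots on each array gave values that were lower in the adult than in the fetal groups. The 5 means were between -0.09 and 0.22 in fetal frontal cortex and between -1.44 and -0.33 in adult frontal cortex, without overlap, a difference of -0.72 (exact two-sided permutation p 0.00794, the smallest that 5 against 5 arrays allow). In occipital cortex they were between 0.22 and 0.45 in the fetus and between -0.47 and 0.033 in the adult, again without overlap, a difference of -0.55 (exact permutation p 0.00794). Adjusted over all 192 comparisons of 48 repeated accessions, both came to 0.179, and none of the 192 passed. Among the 48 accessions, the age groups did not overlap, in either direction, in 6.25% in frontal and 4.17% in occipital cortex, and adults lay below fetuses without overlap in 2.08% of accessions in frontal and 2.08% in occipital cortex, 1 of 48 each time, and Sod1 was that 1 in both. With the brightness trend described below removed, the groups overlapped, at differences of -0.49 (exact permutation p 0.0317) and -0.26 (exact permutation p 0.0952). With a trend on array position removed instead, they stayed apart, at -0.59 and -0.44 (exact permutation p 0.00794 each, 0.127 adjusted). Sod1 was then not alone: adults lay below fetuses without overlap in 2 of 48 accessions in frontal and 3 of 48 in occipital cortex. In either direction 4 and 7 of 48 did not overlap. The RefSeq-transcript probe differed the same way by -0.45 and -0.55 ± 0.44 (SE) and did not pass (limma adjusted p 0.675 and 0.428). This comparison of averaged spots was chosen after the data were seen.

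No member probe passed in any of the 4 differences between groups. The region differences, which ask whether frontal and occipital cortex answered differently, passed for 0 of 21 probes in the fetus and 0 of 21 in the adult by limma, where 2 and 0 had an unadjusted p below the threshold, and for 0.0222% (0.00% higher and 0.0222% lower) and 0.00% of all probes. The age differences passed for 0 of 21 in frontal and 0 of 21 in occipital cortex, with 6 and 3 at an unadjusted p below the threshold, against 0.0266% (0.00443% higher and 0.0222% lower) and 3.60% (2.51% higher and 1.09% lower) of all probes. Sod2 had an adult ratio above the fetal one by 1.01 ± 0.38 in frontal cortex (95% interval 0.24 to 1.78, limma adjusted p 0.241) and by 0.90 ± 0.38 in occipital cortex (0.13 to 1.67, limma adjusted p 0.133). Gpx4 differed by 1.12 ± 0.42 in frontal cortex (0.26 to 1.98, limma adjusted p 0.243) and by 0.16 ± 0.42 in occipital cortex. For Prdx1 the fetal occipital ratio was below the fetal frontal one by -1.08 ± 0.44 (-1.99 to -0.18, limma adjusted p 0.234). Gsr probe B was the most even across groups, with differences between -0.10 and 0.11 and 95% intervals that together reach from -0.98 to 0.99.

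The members' ratios moved with a score that stands in for the brightness of their probes. Intensities were not analysed here, so brightness was scored from the ratios themselves: counts of light that are low can form only a few quotients, so the score took, for each ratio, the log2 of the lowest integer up to 400 that can form it, and then the median over arrays. Gsta1 ranked at the 99.7th percentile of all probes, Gpx4 at 97.1, Sod1 RefSeq at 93.2, Ftl1 at 92.3, Gsr probe B at 89.6, Prdx1 at 80.0 and Sod2 at 66.2. Cat ranked at 52.2, Gsr probe A at 30.3, Hmox1 at 16.2 and Nqo1 at 7.8, and the 10 Sod1 cDNA spots between 0.594 and 74.4 with a median of 33.2. Over the 11 other probes the mean ratio and the rank had a Spearman coefficient of 0.89, over all probes 0.83, and over the 10 cDNA spots, which share 1 target, -0.03. All these points come from the same 20 arrays, and score and ratio are built from the same values. The coefficients thus cannot show a relation to measured light. Median ratios of all probes rose in step with this score, from -0.94 in the lowest to 1.12 in the highest of 10 equal classes.

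**Figure D3:**
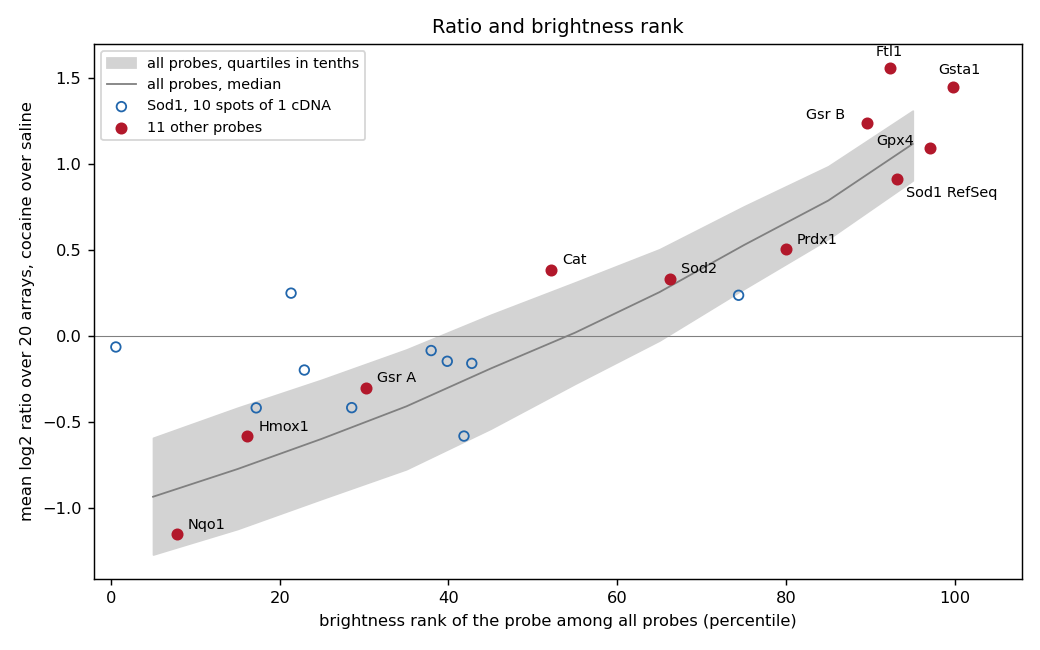
Mean log2 ratio of cocaine over saline over 20 arrays (vertical axis) against the brightness rank of the probe among all probes (horizontal axis, percentile). The grey line and band are the median and quartiles of all probes in 10 classes of brightness, which rise from -0.94 to 1.12, with the 11 member probes filled and the 10 spots of the Sod1 cDNA open. Nqo1 lies lowest at the dim end and Ftl1 highest at the bright end. Of the filled points, Ftl1, Gsta1, Gsr probe B and Cat lie above the upper quartile of their classes. The open circles show no slope.

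With the trend on brightness removed from each array, 3 of 36 member calls remained, 26 kept their direction without passing and 7 lay on the other side of 0 without passing. The Sod1 RefSeq-transcript probe, which had not passed in adult frontal cortex, then passed there as lower (-0.80 ± 0.27, limma adjusted p 0.0458). Another 6 calls, all on Sod1 cDNA spots, passed that had not passed on the centred values: spot i in fetal frontal cortex (1.17), spot e in fetal occipital cortex (1.00), spot d in adult frontal cortex (-1.08), and spots d (-0.96), e (1.16) and i (0.86) in adult occipital cortex. The spots share 1 cDNA, so the adult occipital calls go against each other. Spots d, e and i ranked at the 74.4th, 0.594th and 21.4th percentiles, so the removal took different trend values from them. Of all probes 4.58%, 15.5%, 16.9% and 9.93% then passed in the 4 groups. Gsr probe B kept its call in fetal occipital cortex, at 0.74 ± 0.26 (SE, n = 5 arrays, limma adjusted p 0.0493), as did spots i and j of the Sod1 cDNA there, at 1.15 and 0.86 (limma adjusted p 0.00507 and 0.0181). Ftl1 stayed above 0 in all 4 groups, at 0.76, 0.50, 0.46 and 0.28 ± 0.30, without passing (limma adjusted p from 0.134 to 0.599). Nqo1 stayed below 0 at -0.08, -0.25, -0.35 and -0.44 ± 0.23, and Gsta1 came to 0.36, 0.34, 0.02 and -0.10 ± 0.24, neither passing in any group. Gpx4 came to 0.25, 0.14 and -0.10 in the 3 groups where it had passed, and to -0.76 ± 0.30 in fetal frontal cortex, from 0.56 before (limma adjusted p 0.138). Sod2 in adult cortex came to 0.34 and 0.52 ± 0.24 (limma adjusted p 0.348 and 0.163). Over all 20 arrays the mean of Hmox1 went from -0.59 to 0.17 and that of Prdx1 from 0.50 to -0.18. The difference of the Gsr probes shrank to -0.07 (permutation adjusted p 0.821), and that of the Sod1 probes turned to -0.43 (permutation adjusted p 0.0449). The score is built from the ratios and the trend was fitted on all probes, so brightness as the source of these ratios was not tested.

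**Figure D4:**
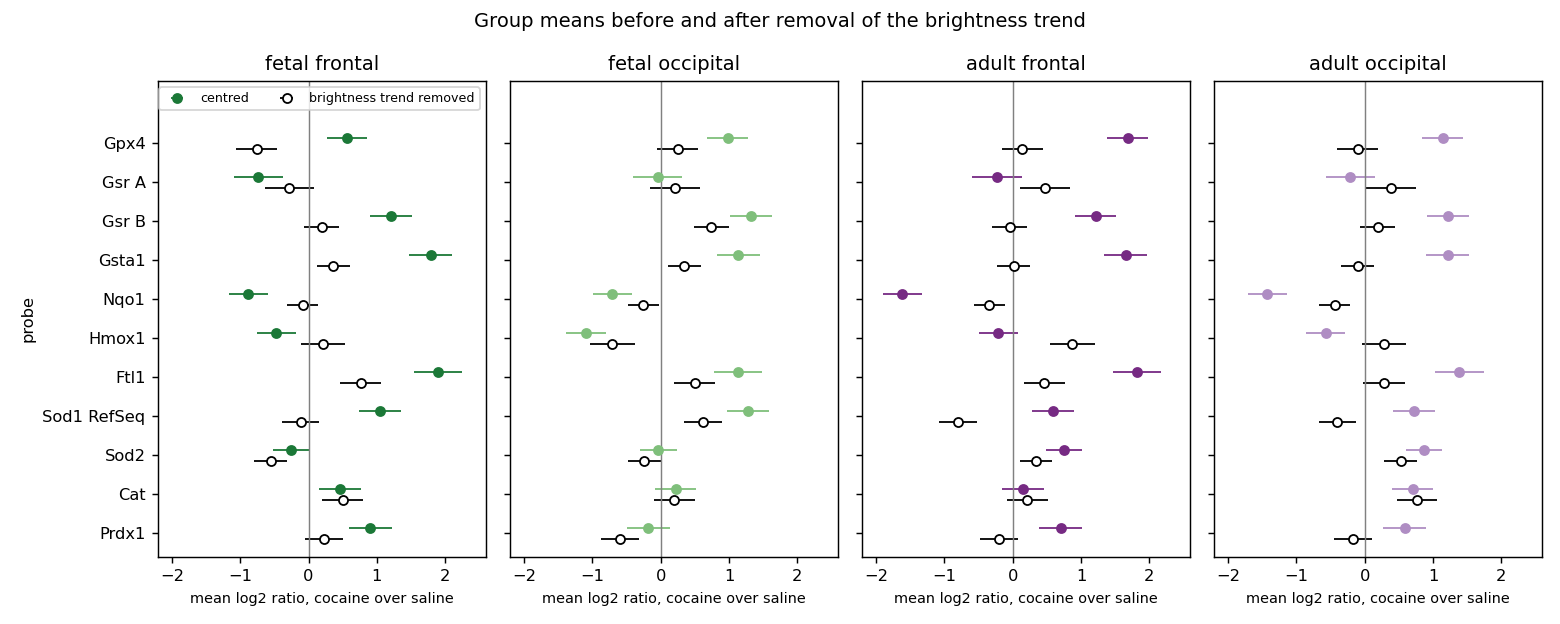
Group means of the log2 ratio of cocaine over saline (horizontal axis, ± SE of the limma model, 5 arrays a group) of the 11 member probes other than the repeated spots, as centred values (filled) and with the trend on brightness removed from each array (open). Gsta1 in adult frontal cortex goes from 1.66 to 0.02 and Nqo1 there from -1.61 to -0.35, while Cat moves little.

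For each member the probe of another gene with the most similar ratios over the 20 arrays was found by the mean absolute difference. The nearest to Ftl1 was the tubulin gene Tubb2a (0.23), to Gsta1 Tle6 (0.27), to Nqo1 Slfn5 (0.30), to Hmox1 Nipsnap3b (0.35), to Sod2 Atraid (0.30), to Cat Ssr4 (0.36) and to Prdx1 the ribosomal protein gene Rpl30 (0.33). Gpx4 was most like Prelid1 (0.29), which carries the next probe number and would sit 1 place away if the array was written in rows of 215. Gsr probe B was most like Cnih2 (0.27), 7 places away in the same row, and Sod1 cDNA spot i most like Gnptab (0.27), in the same column of the row before. The nearest genes of Gsr probe A and of the Sod1 RefSeq-transcript probe were Rasal1 (0.37) and Spatc1 (0.33), and among 22521 probes ranked by likeness to Gsr probe A its own second probe B came at rank 20790.5. The best rank that a Sod1 cDNA spot reached in the list of another lay between 8 and 1761.5.

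Other genes of the pathway were fitted as gene means of their probes, where 35.1%, 22.8%, 53.6% and 45.3% of 16504 genes passed in the same order of groups, with 19.6%, 10.6%, 28.4% and 25.3% higher and 15.5%, 12.2%, 25.2% and 20.0% lower. Of 17 genes of glutathione synthesis and turnover, 4, 3, 6 and 6 were higher and 3, 0, 2 and 2 lower, with medians of -0.04, 0.04, 0.43 and 0.32 against 0.02, 0.00, 0.06 and 0.08 for all genes. Slc7a11, the cystine importer that feeds glutathione synthesis, was lower in adult frontal (-2.23 ± 0.34, SE, n = 5 arrays, limma adjusted p 2.1e-05) and adult occipital cortex (-1.58 ± 0.34, limma adjusted p 0.00117), and passed with brightness removed as well, at -1.68 and -1.10 (limma adjusted p 0.00144 and 0.0299). The glutathione-degrading enzymes Chac1 and Chac2 went apart, at -1.43 and 1.75 in adult frontal cortex. In fetal cortex the mitochondrial glutaredoxin Glrx2 was 1.79 ± 0.33 in the frontal wall and glutathione synthetase, Gss, 0.96 ± 0.29 in the occipital wall (limma adjusted p 0.000379 and 0.0199). With brightness removed 0, 0, 0 and 0 of the 17 genes were higher and 1, 1, 2 and 1 lower. Chac2, Glrx2 and Gss thus no longer passed as higher.

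Of 20 other glutathione transferases, 5, 0, 9 and 6 were higher and 2, 1, 2 and 2 lower in the same order of groups, with medians of 0.29, 0.09, 0.57 and 0.35. Gsta3 was lower in all 4, from -0.89 to -1.89, and its probe ranked at the 16.4th percentile of brightness, while Gsta4, at the 94th, was higher in 3 of them, from 0.90 to 1.29. With brightness removed 0, 1, 1 and 1 of the 20 were higher and 0, 0, 0 and 0 lower, so Gsta3 no longer passed as lower. Among 12 other peroxiredoxin and thioredoxin genes 1, 1, 5 and 4 were higher and 0, 2, 1 and 1 lower. Thioredoxin, Txn1, was lower in fetal occipital cortex (-1.22 ± 0.39, limma adjusted p 0.0243) and higher in adult frontal cortex (1.52 ± 0.39, limma adjusted p 0.00181), and both passed with brightness removed (-1.41 and 1.14). The mitochondrial peroxiredoxin Prdx3 was higher in adult occipital cortex (0.78 ± 0.23, limma adjusted p 0.00899), at 1.27 with brightness removed. Of the 12 genes 0, 0, 2 and 1 were then higher and 0, 2, 0 and 0 lower. Of 8 other glutathione peroxidases and dismutase partners 0, 0, 1 and 1 were higher and 1, 2, 3 and 1 lower, with Gpx5 lowest at -2.45 ± 0.36 in fetal occipital cortex and Ccs, the copper chaperone of Sod1, at 1.23 ± 0.30 in adult occipital cortex. With brightness removed 0, 0, 0 and 0 of the 8 were higher and 0, 1, 0 and 1 lower, so Ccs no longer passed as higher.

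Around ferritin, 19 genes of iron storage, uptake and haem breakdown gave 1, 3, 4 and 2 higher and 4, 2, 5 and 4 lower. Ireb2, an RNA-binding regulator that blocks ferritin translation when iron is low, was higher in all 4 groups, from 0.99 to 1.31, and Hfe, which tunes iron uptake, was lower in all 4, from -1.18 to -1.73. With brightness removed Hfe still passed in all 4, from -1.07 to -1.42, and Ireb2 in none. Of the 19 genes 0, 1, 0 and 0 were then higher and 2, 3, 2 and 1 lower. Among 21 Nrf2 regulators and genes of NADPH supply 5, 2, 6 and 4 were higher and 2, 1, 3 and 1 lower: Sqstm1, an adaptor that sequesters Keap1, was higher in all 4, from 0.99 to 1.15, and Taldo1 of the pentose phosphate pathway was 1.29 ± 0.33 in fetal frontal cortex. With brightness removed 1, 0, 1 and 0 of the 21 were higher and 0, 1, 0 and 0 lower. Sqstm1 thus no longer passed as higher in either occipital group. Of 14 superoxide- or peroxide-producing oxidases 2, 1, 3 and 4 were higher and 1, 1, 3 and 1 lower. The monoamine oxidases stood apart, with Maoa at 1.85 and 1.80 in adult frontal and occipital cortex and Maob at -1.49 and -1.09, and Maoa passed with brightness removed (0.99 and 1.08). Their probes ranked at the 78.7th and 2.23rd percentiles of brightness. With brightness removed 2, 1, 2 and 2 of the 14 were higher and 0, 0, 0 and 0 lower, so Maob no longer passed as lower.

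Markers of cell types that the tissue could hold moved too. Of all 16504 genes 19.6%, 10.6%, 28.4% and 25.3% were higher and 15.5%, 12.2%, 25.2% and 20.0% lower in fetal frontal and occipital, then adult frontal and occipital cortex. In adult frontal cortex 10 of 12 neuron, 7 of 10 astrocyte and 6 of 9 oligodendrocyte markers were higher and none lower, and in adult occipital cortex 10, 3 and 6, and with brightness removed 2, 3 and 5, and 2, 1 and 3. In fetal frontal and occipital cortex 3 and 2 neuron, 0 and 0 astrocyte and 5 and 1 oligodendrocyte markers were higher, and 0 and 1, 1 and 1, and 1 and 1 lower. With brightness removed 0 and 0 of each of these 3 lists were higher there, and 0 and 1, 1 and 3, and 1 and 0 lower. The 1 oligodendrocyte marker lower in fetal frontal cortex was the myelin protein gene Mbp (-1.91 ± 0.37), while Olig1, a transcription factor of that lineage, was 1.91 ± 0.33 there. With brightness removed Mbp still passed there (-1.90, limma adjusted p 0.0105) and Olig1 did not (0.89, limma adjusted p 0.0592). Mbp was higher in adult frontal cortex (1.83 ± 0.37), and the choroid plexus, vessel and meninges markers had 4, 3, 4 and 3 of 12 lower and 0, 0, 2 and 2 higher. With brightness removed these 12 had 1, 3, 2 and 2 lower and 1, 0, 1 and 1 higher. Of 11 erythroid markers 2, 0, 3 and 3 were higher and 2, 1, 6 and 5 lower. They mark blood cells rich in catalase and peroxiredoxins. The haem synthesis enzyme Alas2 was -1.86 ± 0.35 in adult frontal cortex and the globin gene Hba-a1 1.37 ± 0.32 in adult occipital cortex. With brightness removed 0, 0, 0 and 0 of the 11 were higher and 0, 1, 1 and 0 lower. Alas2 in adult frontal cortex then came to -0.76 and Hba-a1 in adult occipital cortex to 0.62, and neither passed. Of 12 microglia and macrophage markers 2, 1, 4 and 2 were higher and 4, 1, 3 and 3 lower, and with brightness removed 0 were higher and 0 lower in every group. The part of these cells in the members' ratios was not tested.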

How the data were processed

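Each array gave 1 log2 ratio per probe, deposited by the authors as a table of the whole series. Per the labels' protocols, RNA was labelled with 3DNA dendrimers on Agilent slides. For image software, background correction and normalization nothing is stated in the sources used. Spot intensities were not analysed, so the precision is limited by the number of arrays. The scale is taken as log2 and the direction, cocaine over saline, is likely but not stated.

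Values equal to an array's maximum (6 to 27 per array) were set to missing and each array was centred on its median. The 22567 of 22575 probes with 3 or more values in each group entered 1 limma model (version 3.58.1, R 4.3.3) of 4 group means, with Benjamini-Hochberg adjustment and a threshold of 0.05. The fit was tested on simulated data. Replicates come from separate litters per the labels. The platform annotation supplied gene symbols, 1 for 18218 probes and several for 16.

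Differences between probes of a gene used sign-flip permutation tests over arrays. Brightness and position trends were lowess fits on each array (spans 0.3 and 0.05). The members and the gene lists were chosen with earlier results of these data known. Every member probe is named, with its nearest probe of another gene, and from each other list up to 3 passing genes per comparison with the smallest p. A further few, such as Prdx3 with brightness removed and Gsta3 beside Gsta4, were chosen after their values were seen. Alternatives covered centring, scaling, filters, trends, left-out arrays and a replicate block. The comparison of the Sod1 probe with the mean of its spots, the comparison of that mean between ages, and exact 0 as missing were added after the data were seen. Replicate numbers were not used as pairs in the main fit: of 30 same-number pairs 7 had residuals correlated over 0.1, and 3 of 20 arrays matched their own number best. The median residual correlation was 0.025 for same-number and -0.0089 for other-number pairs. The highest same-number value was 0.376, for replicate 2 of adult frontal and adult occipital cortex. Weak correlation cannot show that arrays came from different animals.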

Additional observations from a re-analysis of the deposited data

Results flagged for a closer look

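In 3 of 84 groups of 5 arrays 1 array stood apart, with a gap to the next value of more than 0.71 of the group's range, and chance gives about 5% of groups. The Sod1 RefSeq-transcript probe read -0.252 on adult frontal replicate 3, where the other 4 arrays lay between 0.655 and 0.953. Sod1 cDNA spot d read 2.158 on fetal occipital replicate 5, where the others lay between 0.39 and 0.61. Spot h read -0.413 on that same array, where the others lay between 0.389 and 0.694.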

How the results depend on the processing

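Of 36 calls on single probes, 36 were kept with the replicate block (7, 10, 12 and 7 probes passing in fetal frontal and occipital, then adult frontal and occipital cortex, and 0 in each difference between groups), with exact 0 as missing and with values required on all 20 arrays, 35 without centring and with maxima kept, 33 after quantile normalization, 32 with arrays scaled to equal spread, 29 from the arrays of the comparison alone (4 probes passing in fetal occipital cortex) and 24 without the position trend (5 there). Scaling and quantile normalization each gave 2 probes, and brightness removal 1, that passed between adult and fetal occipital cortex. Of all probes 5.68%, 12.0% and 2.75% passed that difference under these 3 settings. With the sign of fetal frontal replicate 1 turned, 0 of 7 calls remained. Without both fetal occipital arrays numbered 1, 3 of 10 remained. Averaging the probes of a gene gave 4, 4 and 6 passing genes in fetal frontal, fetal occipital and adult frontal cortex. In adult occipital cortex 4 of the 10 genes were higher and 1 lower. Of all genes 35.1%, 22.8%, 53.6% and 45.3% passed in the 4 groups. With brightness removed 1, 4, 2 and 3 probes passed, and with brightness and position removed 1, 2, 1 and 3, none of them among the 36. Of all probes 4.58%, 15.5%, 16.9% and 9.93% passed in the first case and 5.85%, 5.23%, 19.3% and 11.3% in the second. Brightness removal turned the Sod1 RefSeq-transcript probe (-0.11 in fetal frontal, -0.80 in adult frontal cortex), Gsr probe B (-0.042, adult frontal), Sod1 spots b (0.22) and h (0.015) in adult frontal cortex, and Gpx4 (-0.10), Gsta1 (-0.10) and spot b (0.10) in adult occipital cortex. Removing both turned Gsr probe B (-0.080), the Sod1 RefSeq-transcript probe (-0.39) and Prdx1 (-0.010) in fetal frontal, Gsr probe B (-0.070), Gsta1 (-0.074), spot b (0.60) and spot c (0.11) in adult frontal, and Gsta1 (-0.21) and spot b (0.42) in adult occipital cortex. The Gsr probe difference came to -0.073 and 0.12 and the Sod1 one to -0.43 and -0.63 under these removals. The cause was not tested. Leaving out 1 array at a time kept 129 of 180 calls, with 4 to 7, 3 to 7, 7 to 12 and 5 to 7 probes passing in the 4 groups. The lowest came without fetal frontal replicate 2 (23.2% of all probes passing), fetal occipital replicate 1b (15.4%) and adult frontal replicate 2, and 5 and 4 passed without fetal occipital replicates 4 and 5. The Gsr difference then ran from -1.64 to -1.38 and the Sod1 one from 1.00 to 1.12.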
